A study of Mus musculus with 18 samples.

Results

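The mitochondrial ribosomal proteins were taken as every gene of the table whose symbol starts with Mrpl (large subunit) or Mrps (small subunit) followed by a number, with a level of at least 0.5 TPM (a share of all transcripts, scaled by gene length) in at least 4 of the 18 libraries. This left 77 members, 48 Mrpl and 29 Mrps, of 12111 genes that met the same limit and 46983 rows in all. Of 82 rows with such a symbol, the 5 that failed the limit were processed pseudogenes (Mrpl23-ps1, Mrpl48-ps, Mrps36-ps1, Mrps36-ps2 and Mrps36-ps3), each listed at 0 TPM in all libraries.

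Poly(A) RNA was sequenced from skeletal muscle, labelled quadriceps, of adult male C57Bl6/J mice. The 4 groups were MKO mice fasted for 24 h (n = 5), WT mice fasted for 24 h (n = 4), fed MKO mice (n = 5) and fed WT mice (n = 4). MKO mice carried floxed PGC-1β alleles and a Cre transgene under the human skeletal actin promoter, which removes part of the gene in muscle fibres only, while their WT controls had the floxed alleles and no Cre, so the controls are not free of the targeting. The comparisons ask how loss of the coactivator PGC-1β changes the muscle transcriptome, how fasting changes it, and whether the fasting change differs between genotypes.

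The mitochondrial ribosome makes the few proteins encoded by mitochondrial DNA, all of them parts of the respiratory chain and the ATP synthase. Its ribosomal RNAs come from the mitochondrial genome, whereas its proteins come from nuclear genes, are made in the cytosol and are imported. The small subunit reads the messenger RNA and the large subunit forms the peptide bond, and PGC-1 coactivators are known to raise nuclear genes for mitochondrial proteins through factors such as NRF1 and ERRα. Symbols do not follow position in every case: Mrps30 (mL65) and Mrps18a (mL66) sit in the large subunit, and the Mrps36 protein is a component of the α-ketoglutarate dehydrogenase complex. By position the members therefore divide into 50 large subunit genes, 26 small subunit genes and Mrps36.

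Each gene was tested on 2 scales, because TPM are shares of 1 total. As deposited means log2(TPM + 0.1). Relative to the median gene means the same value after the median over all 12111 tested genes was subtracted in each library. A call is an adjusted p under 0.05 in limma, adjusted by Benjamini-Hochberg over all 12111 genes.

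The libraries differed in what the members' shares are shares of. Transcripts of the mitochondrial genome took 61.5 to 67.9% of the total in fasted MKO, 70.8 to 81.3% in fasted WT, 67.3 to 70.4% in fed MKO and 74.3 to 75.0% in fed WT libraries, while the median gene (log2) was at 2.08 to 2.28, 1.54 to 2.04, 2.08 to 2.24 and 1.81 to 1.90 in the same order. The median gene was thus higher in MKO than in WT libraries on the deposited scale, by 0.32 (log2) between group means in fasted and by 0.27 in fed muscle, and the second scale removes these shifts. Between fasted and fed libraries it differed by 0.05 in MKO and by 0.004 in WT mice. Fasted WT replicate 4 stood apart, with the 81.3% mitochondrial share, the lowest summed level of 7 muscle fibre markers (27978 TPM, against 49772 to 83681 TPM in the other 17 libraries) and the highest of 8 slow fibre markers (660 TPM, against 74.0 to 540 TPM). The fibre markers were detected in every library, and their sum as deposited also separated the genotypes within each state. It was 64073 to 83681 TPM in fasted MKO against 27978 to 56908 TPM in fasted WT libraries. In fed muscle it was 55342 to 62998 TPM in MKO against 49772 to 53731 TPM in WT libraries. With the median gene subtracted, its mean (log2) was 13.927 in fasted MKO and 13.615 in fasted WT libraries. In fed muscle that order was reversed, at 13.727 in MKO and 13.797 in WT libraries. The sum of 3 smooth muscle and pericyte markers was 85.8 to 105 TPM in fasted MKO, 75.4 to 91.8 in fasted WT, 113 to 124 in fed MKO and 85.4 to 107 in fed WT libraries. It was apart between fasted and fed MKO and between fed MKO and fed WT. Fed MKO and fed WT libraries were also apart for 5 endothelial markers (51.3 to 64.2 against 39.0 to 50.5 TPM) and 4 Schwann cell markers (13.9 to 25.3 against 7.79 to 13.5 TPM). Both of these sums overlapped between the genotypes in fasted muscle. With the median gene subtracted, the fed MKO and fed WT means (log2) were 4.78 and 4.73 for the smooth muscle and pericyte markers. They were 3.73 and 3.66 for the endothelial and 2.05 and 1.68 for the Schwann cell markers. The summed level of 4 adipocyte markers was 16.2 to 165 TPM in fasted MKO, 11.8 to 77.7 in fasted WT, 48.5 to 138 in fed MKO and 45.0 to 82.6 in fed WT libraries. The part of these cell types in the results was not tested. Counts that turn on fasted WT replicate 4 are given without it. Ppargc1b, which encodes PGC-1β, was at 0.422 to 1.11 TPM in fasted MKO, 0.726 to 1.47 in fasted WT, 1.76 to 2.35 in fed MKO and 1.45 to 2.05 in fed WT libraries. Its MKO against WT difference was not called in either state, and a value over the whole gene does not measure the deleted exons. In bulk muscle, fewer cells of a type and less RNA per cell cannot be told apart.

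The promoter windows of 6 members are shown here, chosen because they were called in the same direction on fasting in both genotypes. Those called higher (Mrpl41, Mrpl9 and Mrps30) can be read beside those called lower (Mrps11, Mrpl18 and Mrpl42). The windows are from RefSeq on GRCm38.p6 and run from 250 bases before to 50 bases after the annotated start, 5′ to 3′ on the gene's strand. Capitals mark exact matches on either strand to GCATGCGC (NRF1), CCGGAAG (ETS factors), AAGATGGCG (YY1), AAGGTCA (ERR) or TGTTTAC (FOXO).
Mrpl41, chr2:24975049-24975348, - strand: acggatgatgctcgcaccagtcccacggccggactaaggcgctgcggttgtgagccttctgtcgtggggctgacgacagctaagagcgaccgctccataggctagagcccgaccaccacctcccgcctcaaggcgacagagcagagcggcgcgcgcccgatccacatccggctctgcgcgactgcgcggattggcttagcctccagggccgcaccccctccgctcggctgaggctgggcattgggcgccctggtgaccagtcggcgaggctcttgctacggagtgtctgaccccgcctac
Mrpl9, chr3:94443086-94443385, + strand: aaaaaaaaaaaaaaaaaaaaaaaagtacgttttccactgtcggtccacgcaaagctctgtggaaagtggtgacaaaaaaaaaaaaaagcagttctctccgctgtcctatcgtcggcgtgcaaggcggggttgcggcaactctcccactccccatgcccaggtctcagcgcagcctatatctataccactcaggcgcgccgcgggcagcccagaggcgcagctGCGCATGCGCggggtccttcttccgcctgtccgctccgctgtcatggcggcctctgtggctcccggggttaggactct
Mrps30, chr13:118387203-118387502, - strand: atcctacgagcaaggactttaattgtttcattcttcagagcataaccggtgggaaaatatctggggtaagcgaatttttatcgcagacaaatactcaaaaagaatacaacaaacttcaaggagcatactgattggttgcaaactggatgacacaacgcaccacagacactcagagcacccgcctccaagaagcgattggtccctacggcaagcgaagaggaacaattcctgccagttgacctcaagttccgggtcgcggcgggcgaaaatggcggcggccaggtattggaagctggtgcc
Mrps11, chr7:78782881-78783180, + strand: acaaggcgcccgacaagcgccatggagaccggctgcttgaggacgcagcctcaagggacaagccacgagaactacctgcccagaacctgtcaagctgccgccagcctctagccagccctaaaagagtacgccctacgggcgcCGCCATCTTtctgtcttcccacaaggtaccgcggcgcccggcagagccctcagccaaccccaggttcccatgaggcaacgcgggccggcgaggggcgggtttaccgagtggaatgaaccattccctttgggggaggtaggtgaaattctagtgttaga
Mrpl18, chr17:12916042-12916341, - strand: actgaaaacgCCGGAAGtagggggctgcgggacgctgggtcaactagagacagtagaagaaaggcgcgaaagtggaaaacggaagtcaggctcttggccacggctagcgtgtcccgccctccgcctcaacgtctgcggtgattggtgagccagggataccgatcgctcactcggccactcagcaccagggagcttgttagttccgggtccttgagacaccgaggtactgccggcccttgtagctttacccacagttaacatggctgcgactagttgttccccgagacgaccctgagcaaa
Mrpl42, chr10:95501900-95502199, - strand: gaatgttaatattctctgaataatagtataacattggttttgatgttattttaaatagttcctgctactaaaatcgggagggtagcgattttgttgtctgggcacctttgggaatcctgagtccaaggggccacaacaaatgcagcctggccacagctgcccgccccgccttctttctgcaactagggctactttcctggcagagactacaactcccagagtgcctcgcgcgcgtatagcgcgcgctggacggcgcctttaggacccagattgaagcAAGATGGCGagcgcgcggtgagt
Mrpl9 held the NRF1 letters on both strands in 1 overlapping block, Mrps11 and Mrpl42 held the YY1 letters, Mrpl18 held the ETS letters, and the windows of Mrpl41 and Mrps30 held none of the 5.

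RefSeq windows were matched for 68 of the 77 members by symbol, and for 27025 genes in all, of which 8968 were among the tested genes. CCGGAAG was present in a window of 25 members (36.8%), against 20.2% of tested genes and 9.93% of all genes. GCATGCGC was present in 8 members (11.8%), against 6.0% and 3.05%, and AAGATGGCG in 8 members (11.8%), against 3.72% and 1.64%. The ERR letters AAGGTCA were in 4 members (5.88%, against 3.79% and 5.38%), namely Mrpl12, Mrpl36, Mrps15 and Mrps21, and the FOXO letters TGTTTAC in 2 (2.94%, against 3.07% and 4.05%), namely Mrpl40 and Mrpl44. These are letter matches in short windows and show neither binding nor its absence.

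Mrps11 lies on chromosome 7 (GRCm38, 78783119 to 78792989, plus strand) head to head with Mrpl46 (78775236 to 78783531, minus strand). Their annotated exons share 173 bases, 8.0% of those of Mrps11, and their windows share 141 bases. Whether the authors' counting used strand is not given in the sources used here, so reads over the shared bases cannot be assigned to either gene. Mrpl41 (chromosome 2, 24974117 to 24975098, minus strand) and Mrpl42 (chromosome 10, 95480805 to 95501940, minus strand) have no exon overlap with another gene. In all, 32 members share exon bases with another annotated gene and 10 share at least 20% of them, which include Mrpl53 (88.0% with Gm42688 on the same strand), Mrps25 (69.8% with Nr2c2 on the opposite strand), Mrps34 (63.4% with Mapk8ip3, opposite strand) and Mrpl19 (36.0% with Gcfc2, opposite strand). How many reads of these members come from the neighbours is unknown, and the neighbours differ in level: Gm42688 averaged 2.79 TPM against 34.4 TPM for Mrpl53, while Nr2c2 averaged 5.31 TPM against 3.20 TPM for Mrps25.

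The members spanned a 156-fold range of level, although their proteins are built into 1 particle mostly in single copies. Mrpl42, a mitochondria-specific protein of the large subunit, stood alone at the top with a mean of 242 TPM over the 18 libraries (range 179 to 300), 5.13 times the next member. Mrpl32 (bL32m, a large subunit protein) followed at 47.2 TPM and Mrps21 (bS21m, of the small subunit) at 38.2 TPM. The lowest were Mrps35 (1.55 TPM), Mrps10 (uS10m, 2.07 TPM) and Mrpl19 (bL19m, 2.86 TPM). By mean level, 64 members averaged 5 to 50 TPM and 12 were under 5 TPM, with a median of member means of 12.2 TPM, 13.4 for Mrpl and 11.5 for Mrps. TPM is a level per length, and lower levels went with longer annotated exon sequence (Spearman rho = -0.59 across 77 genes, which share all libraries). Members under 2000 exon bases had a median of 19.1 TPM (31 genes) and members of 4000 or more had 5.04 TPM (22 genes). The exon length is the union over annotated transcripts, and whether unused exons of long gene models lower these TPM values was not tested.

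**Figure D1:**
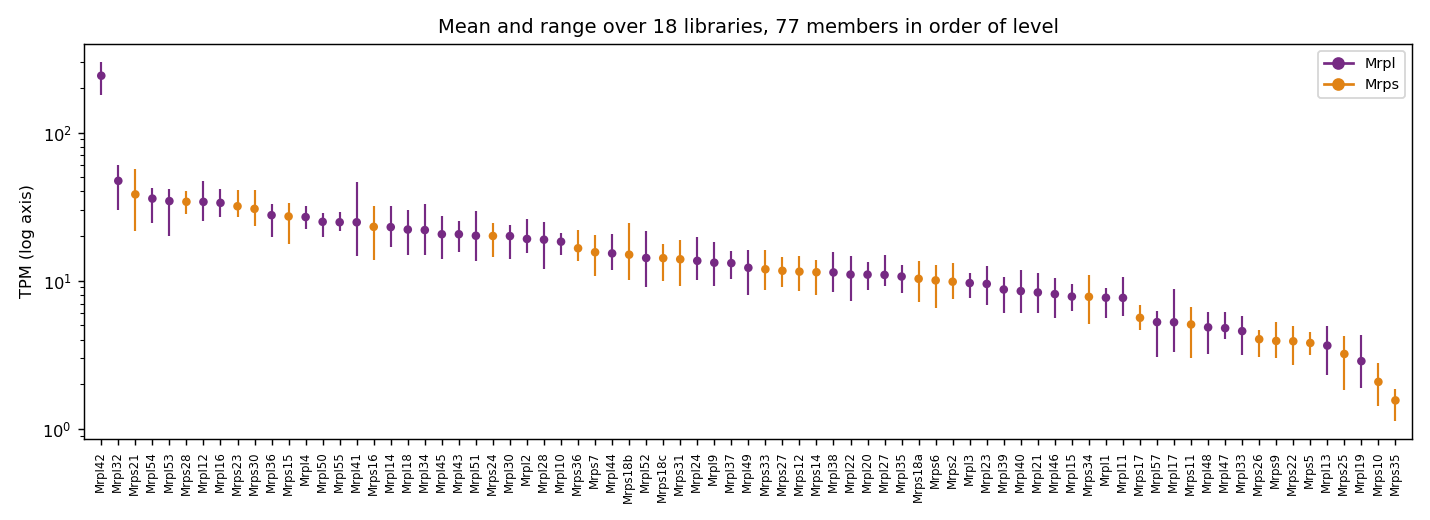
Mean level (points) and range (lines) of the 77 members over the 18 libraries in TPM on a log axis, in order of the mean, Mrpl in purple and Mrps in orange. Mrpl42 lies at 242 TPM, 5.13 times Mrpl32, and both subunits spread over the rest of the range.

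On fasting, more members were called in WT than in MKO muscle, mostly lower in WT and in both directions in MKO. In MKO mice, 6 of 77 members fell as deposited (7.79%, where 15.8% of all tested genes fell) and 7 rose (9.09%, where 18.1% of all genes rose), with a median change of 0.00 (log2) over the members and 0.01 over all genes. On the second scale, 11 fell (14.3%, background 22.7%) and 8 rose (10.4%, background 20.2%), at a member median of -0.06. All 6 and all 7 of the first scale were among the 11 and 8 of the second. The count that fell on the second scale was 6 without fed MKO replicate 3, and the count that rose as deposited was 4 without fasted MKO replicate 2 and also 4 without fed MKO replicate 2. With mitochondrial rows left out of the TPM, 19 fell and 4 rose, and with no filter on low genes 0 fell and 14 rose relative to the median gene. The share of all genes called under such alternatives is not given here or below. Those counts alone therefore do not separate a change of the family from a change of all genes.

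In WT mice, 24 of 77 members fell as deposited (31.2%, background 20.7%) and 3 rose (3.90%, background 15.3%), with a median change of -0.19 over the members and -0.06 over all genes. After subtraction of the median gene, 27 fell (35.1%, background 24.6%) and 5 rose (6.49%, background 19.9%), with a member median of -0.20. All 24 and all 3 of the first scale were among the 27 and 5 of the second. Without fasted WT replicate 4, the counts were 23 lower and 5 higher as deposited and 37 lower and 2 higher on the second scale, where the median was -0.29. The higher count on that scale was also 2 without fed WT replicate 2, and 3 without fed WT replicate 1 or 4. Fitting only the WT groups gave 12 lower as deposited, and no filter gave 10 lower relative to the median gene. Without these alternatives, the share of members that fell was below the share of all genes in MKO and above it in WT mice on both scales, and the counts depended on the settings given here. The difference between genotypes was tested gene by gene and not for the list.

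Some members were called in both genotypes. The 2 fasting comparisons have no library in common, but they share 1 estimate of the spread of each gene, so their calls are not independent. As deposited, 3 members rose in both (Mrpl41, Mrpl9 and Mrps30) and 6 fell in both (Mrpl18, Mrpl19, Mrpl34, Mrpl42, Mrpl48 and Mrps11), which is all 6 of those that fell in MKO and 6 of the 24 that fell in WT, and 3 of the 7 that rose in MKO and all 3 that rose in WT. With the median gene subtracted, Mrpl44 joined the first group and Mrpl13, Mrpl49 and Mrpl51 the second. Over all 77 members the fasting changes in MKO and in WT had a Pearson r of 0.84 and a Spearman rho of 0.80, given as a description across genes that share the same 18 libraries. The matching correlations over all genes, and the share of all genes called alike in both genotypes, are not given. These overlaps and correlations are therefore not shown to be particular to the family. The change was higher in MKO than in WT mice for 66 members as deposited and for 60 relative to the median gene. The median of this difference was 0.19 and 0.14 over the members, and it was also above 0 over all genes, at 0.06 and 0.01. The share of all genes with a higher change in MKO is not given.

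**Figure D2:**
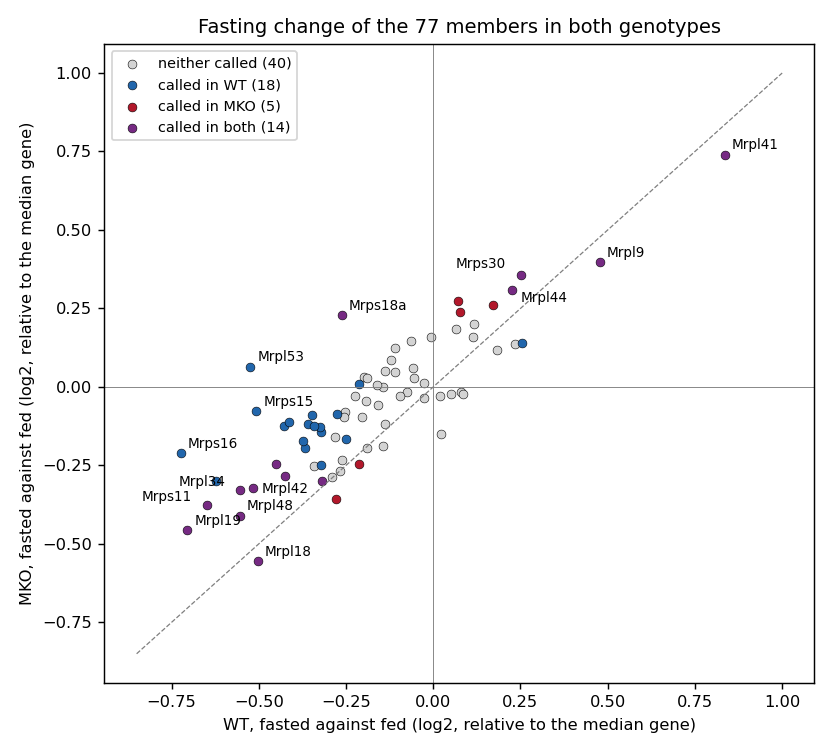
Fasting change (log2, relative to the median gene) of each member in WT mice (x axis, n = 4 fasted and 4 fed) and in MKO mice (y axis, n = 5 and 5), coloured by where limma called it, with the line of equal change dashed. Mrpl41 lies at 0.74 in MKO and 0.83 in WT mice, apart from the rest, and most members lie above the line. The median of the MKO minus WT change was 0.14 over the members and 0.01 over all genes.

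Mrpl41, a mitochondria-specific large subunit protein (mL41), rose most. It was at 32.4, 46.1, 26.4, 32.4 and 31.1 TPM in fasted MKO libraries, against 14.6, 18.3, 19.9, 22.8 and 20.9 TPM in fed MKO libraries. It was at 30.9, 28.9, 30.9 and 25.7 TPM in fasted WT libraries, against 16.8, 15.5, 15.6 and 16.9 TPM in fed WT libraries. No fasted library overlapped a fed one in either genotype, and fasted MKO replicate 2 was the highest of all. As deposited the rise was 1.73-fold in MKO (log2 0.79 ± 0.13 SE, limma adjusted p = 0.000121, 5 of 5 fasted libraries above the fed mean) and 1.79-fold in WT (0.84 ± 0.14, adjusted p = 0.00018, 4 of 4).

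Mrps30 (mL65), a second large subunit protein, rose by less. Its levels were 36.1, 38.9, 36.3, 40.6 and 40.0 TPM in fasted MKO against 27.98, 27.2, 30.0, 30.0 and 29.1 TPM in fed MKO libraries. In WT mice the levels were 30.5, 29.1, 27.8 and 28.6 TPM in fasted against 24.9, 23.4, 24.0 and 24.9 TPM in fed libraries. Again the fasted and fed libraries did not overlap, and the spread within each group was small. The change as deposited was 0.41 ± 0.07 (log2) in MKO (limma adjusted p = 0.00014, 5 of 5 libraries) and 0.25 ± 0.08 in WT (adjusted p = 0.0133, 4 of 4).

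Mrpl9 (bL9m), the homologue of bacterial L9, was at 16.7, 18.3, 15.1, 15.03 and 16.8 TPM in fasted MKO against 11.3, 9.67, 14.6, 10.9 and 13.9 TPM in fed MKO libraries. The WT levels were 17.1, 15.02, 12.6 and 11.3 TPM in fasted against 10.6, 9.90, 9.78 and 9.26 TPM in fed libraries. The groups were apart in both genotypes, with a wide spread in fed MKO and fasted WT muscle. The changes as deposited were 0.45 ± 0.12 in MKO (limma adjusted p = 0.00729, 5 of 5 libraries) and 0.48 ± 0.14 in WT (adjusted p = 0.00897, 4 of 4).

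Mrpl44 (mL44), which has the fold of a double-stranded RNA endonuclease, was at 20.5, 19.2, 15.9, 19.0 and 19.7 TPM in fasted MKO against 13.1, 15.3, 15.6, 13.5 and 15.8 TPM in fed MKO libraries. The WT levels were 14.7, 16.2, 14.8 and 12.3 TPM in fasted against 12.3, 11.8, 13.1 and 12.1 TPM in fed libraries. The MKO groups were just apart, and fasted WT replicate 4 lay within the fed WT range. It rose in MKO mice as deposited (0.36 ± 0.09, limma adjusted p = 0.00534, 5 of 5 libraries). In WT mice its change of 0.23 as deposited missed the threshold (adjusted p = 0.0938, 3 of 4), and relative to the median gene it was 0.22 (adjusted p = 0.0322, 4 of 4).

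Among the members that fell in both genotypes, Mrps11 (uS11m), a protein of the small subunit platform, had the smallest adjusted p in WT. It was at 5.21, 4.73, 4.68, 4.12 and 5.08 TPM in fasted MKO against 5.53, 5.99, 5.54, 6.15 and 6.68 TPM in fed MKO libraries. In WT it was at 3.79, 4.01, 3.72 and 2.99 TPM in fasted against 5.73, 5.22, 6.15 and 5.72 TPM in fed libraries. Every fasted library was below every fed one of its genotype, and the fasted WT libraries were the lowest of all. Relative to the median gene the decrease was -0.38 ± 0.06 in MKO (limma adjusted p = 0.000154, 5 of 5 libraries) and -0.65 ± 0.07 in WT (adjusted p = 1.43e-06, 4 of 4).

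Mrpl42, the most abundant member, also fell. It was at 200.1, 261, 237, 223 and 224 TPM in fasted MKO against 261, 287, 299.5, 271 and 258 TPM in fed MKO libraries. For WT, the levels were 201, 179, 192 and 182 TPM in fasted against 285, 273, 274 and 245 TPM in fed libraries. Fasted MKO replicate 2 reached the lower fed MKO libraries, while the WT groups were apart. The decrease as deposited was -0.27 ± 0.08 in MKO (limma adjusted p = 0.0135, 5 of 5) and -0.51 ± 0.09 in WT (adjusted p = 0.000191, 4 of 4).

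Mrpl18 (uL18m), whose bacterial homologue binds the smallest ribosomal RNA of the large subunit, was at 16.1, 21.5, 18.9, 14.9 and 15.8 TPM in fasted MKO against 24.4, 21.5, 30.0, 24.6 and 22.8 TPM in fed MKO libraries. WT levels were 22.6, 17.5, 16.7 and 21.1 TPM in fasted against 29.6, 27.9, 27.0 and 25.1 TPM in fed libraries. The WT groups were apart, while fasted MKO replicate 2 just exceeded the lowest fed MKO library. The decrease as deposited was -0.50 ± 0.12 in MKO (limma adjusted p = 0.00263, 5 of 5) and -0.50 ± 0.13 in WT (adjusted p = 0.00543, 4 of 4). Mrpl18 (chromosome 17, 12911349 to 12916345, minus strand) shares 141 exon bases with Tcp1 on the opposite strand, which was at a mean of 42.4 TPM. Mrpl48 (mL48, in the central protuberance) changed by -0.36 in MKO and -0.55 in WT as deposited (limma adjusted p = 0.00588 and 0.000411). Mrpl19 changed by -0.40 and -0.70 (adjusted p = 0.0106 and 0.000327), and Mrpl34 (bL34m) by -0.27 and -0.55 (adjusted p = 0.0382 and 0.000736). For all 3, every fasted library lay below the fed mean of its genotype. The WT groups did not overlap for any of them, and the MKO groups overlapped for Mrpl19 and Mrpl34.

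**Figure D3:**
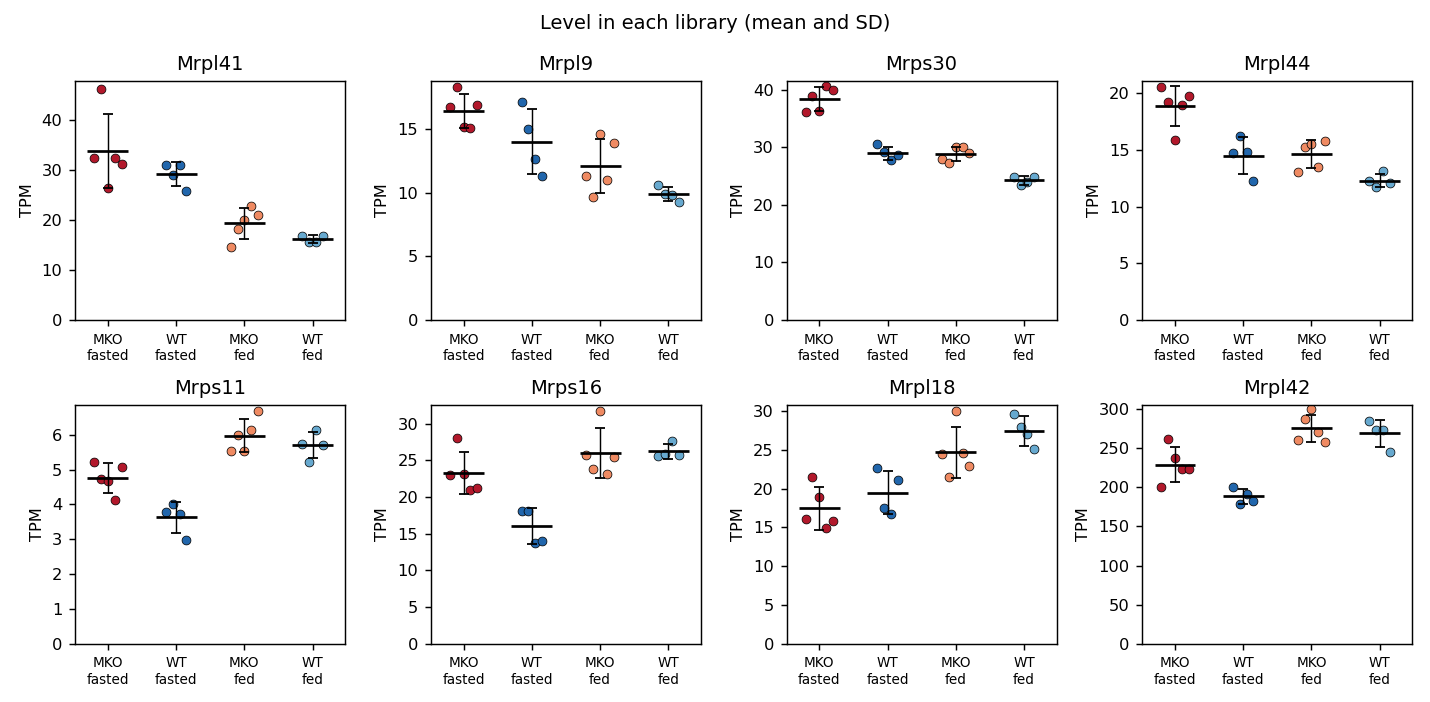
Level of 8 members in each library in TPM (axis from 0), groups from left to right fasted MKO, fasted WT, fed MKO and fed WT, with the mean and SD as bars. Mrpl41, Mrpl9 and Mrps30 are higher in fasted muscle of both genotypes, Mrps11, Mrpl18 and Mrpl42 lower, and Mrps16 is low in fasted WT alone. Mrpl44 is higher in fasted muscle by its means, but its WT groups overlap.

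Other members were called in WT mice and not in MKO mice. Mrps16 (bS16m, a small subunit protein) was at 23.1, 28.1, 23.1, 20.98 and 21.2 TPM in fasted MKO libraries, against 25.8, 23.8, 31.7, 23.2 and 25.5 TPM in fed MKO libraries. In WT mice it was at 18.2, 18.2, 13.7 and 14.1 TPM in fasted against 25.6, 25.9, 27.7 and 25.7 TPM in fed libraries. The MKO groups overlapped, whereas the WT groups were far apart. The MKO change of -0.16 ± 0.11 as deposited was not called (limma adjusted p = 0.28, 4 of 5), and the decrease in WT was -0.72 ± 0.12 (adjusted p = 0.000139, 4 of 4). The difference between these changes did not pass the interaction test (0.56 ± 0.16, adjusted p = 0.272 as deposited and 0.204 relative to the median gene).

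Mrps15 (uS15m), which binds the small subunit RNA, and Mrpl53 (mL53), at the base of the large subunit stalk, showed the same arrangement. Mrps15 was at 28.1, 32.4, 26.4, 29.9 and 30.4 TPM in fasted MKO and at 29.9, 30.4, 33.3, 29.3 and 26.9 TPM in fed MKO libraries. In WT it was at 21.6, 18.5, 21.3 and 17.7 TPM in fasted and at 27.0, 28.9, 29.3 and 26.7 TPM in fed libraries. Only the fasted WT libraries were low. The MKO change was -0.02 as deposited (limma adjusted p = 0.848), the WT decrease was -0.50 ± 0.09 (adjusted p = 0.000399, 4 of 4), and the interaction was 0.48 ± 0.13 (adjusted p = 0.244).

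Mrpl53 was at 33.4, 36.9, 41.5, 36.5 and 41.5 TPM in fasted MKO and at 32.7, 37.7, 29.8, 33.7 and 41.4 TPM in fed MKO libraries. In WT it was at 29.5, 27.2, 28.4 and 19.98 TPM in fasted and at 38.1, 37.9, 33.3 and 40.4 TPM in fed libraries. The WT groups were apart and the MKO groups overlapped. It had the smallest adjusted p of the members for the interaction, as deposited level with Mrps15, at 0.64 ± 0.17 as deposited (limma adjusted p = 0.244) and 0.59 ± 0.13 relative to the median gene (adjusted p = 0.088), neither past the threshold. Of its exon bases, 88.0% are shared with Gm42688, a gene model on the same strand at a mean of 2.79 TPM.

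Mrps18a (mL66) was at 13.6, 13.7, 10.7, 11.2 and 11.7 TPM in fasted MKO against 8.44, 9.35, 11.7, 9.64 and 10.97 TPM in fed MKO libraries. In fasted WT libraries it was at 9.34, 9.14, 8.28 and 7.13 TPM, against 9.56, 10.1, 10.8 and 9.98 TPM in fed WT libraries. Fasted WT libraries were all below fed WT ones, and the MKO groups overlapped. It was the only member called in opposite directions in the 2 genotypes, which held on 1 scale. When set against the median gene it changed by 0.23 ± 0.08 in MKO (limma adjusted p = 0.0252, 5 of 5 libraries) and by -0.26 ± 0.09 in WT (adjusted p = 0.0211, 4 of 4). The interaction of 0.49 ± 0.12 missed the threshold (adjusted p = 0.119). As deposited the changes were 0.28 in MKO (adjusted p = 0.0449, 5 of 5) and -0.26 in WT (adjusted p = 0.0951, 4 of 4).

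Over the family, no member was called for the interaction on either scale, where limma called 4 of all genes higher (0.033%) and none lower as deposited, and 11 higher (0.0908%) and 3 lower (0.0248%) relative to the median gene. Without adjustment, p was under 0.05 for 9 of 77 members with a positive and 0 with a negative interaction as deposited, and for 6 and 0 relative to the median gene. Of all 12111 genes, 866 were positive and 237 negative at that limit as deposited, and 884 and 508 relative to the median gene. The member medians of the interaction were 0.19 and 0.14, against 0.06 and 0.01 over all genes.

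In fasted muscle, most members were higher in MKO than in WT mice as deposited, and none was called higher relative to the median gene. As deposited, 51 of 77 members were called higher (66.2%) and 0 lower, where 38.9% of all genes were called higher and 0.528% lower. Fitting only the fasted groups gave 23 higher. The member median was 0.36 (log2), against 0.31 over all genes, but it was below that of all genes without fasted WT replicate 2 (0.32 against 0.34) or 3 (0.33 against 0.34). On the scale of the median gene, 0 were called higher (background 2.64%) and 1 lower (background 2.54%), with a member median of 0.04, which ran from -0.02 without fasted WT replicate 2 to 0.08 without replicate 4. Without adjustment, limma p was under 0.05 for 5 members in each direction on that scale, against 1229 higher and 1307 lower of all 12111 genes. When the rows of the mitochondrial genome were left out and TPM rescaled to the rest, 0 were called higher and 4 lower. The mitochondrial share of the total moved with this result (61.5 to 67.9% in fasted MKO against 70.8 to 81.3% in fasted WT libraries), and relative to the median gene the calls were lost. Without fasted WT replicate 4, 39 were higher as deposited, and relative to the median gene 1 was higher and 0 lower.

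The members with the smallest adjusted p as deposited were Mrps15, Mrpl39, Mrps30, Mrps22, Mrpl30 and Mrpl36. Mrpl39 (mL39, related to threonyl-tRNA synthetase) was at 8.67, 10.0, 9.48, 9.51 and 9.59 TPM in fasted MKO, against 7.35, 6.02, 6.38 and 6.57 TPM in fasted WT libraries. The groups did not overlap, at a difference of 0.52 ± 0.08 (limma adjusted p = 0.000437, 5 of 5 MKO libraries above the WT mean). With the median gene subtracted, the Mrpl39 difference was 0.20 ± 0.09 (adjusted p = 0.213). Mrps15 differed by 0.57 ± 0.09 as deposited (adjusted p = 0.000344, 5 of 5) and by 0.25 relative to the median gene (adjusted p = 0.106). Mrps22 (mS22, mitochondria-specific) differed by 0.51 and 0.19, Mrpl30 (uL30m) by 0.42 and 0.10, Mrpl36 (bL36m) by 0.44 and 0.12, and Mrps30 by 0.40 and 0.08 on the 2 scales. For these 4 the adjusted p was 0.000885 to 0.00217 as deposited and 0.264 to 0.628 relative to the median gene. With mitochondrial rows left out, the differences of Mrps30 (-0.049), Mrpl30 (-0.031) and Mrpl36 (-0.016) were below 0.

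Mrpl18 was the 1 member called lower in fasted MKO relative to the median gene (-0.48 ± 0.14, limma adjusted p = 0.0486, 5 of 5 below the WT mean). Its TPM in fasted MKO libraries overlapped those in fasted WT libraries, its difference as deposited was -0.16 (adjusted p = 0.292), and the call was lost when any of 13 of the 18 libraries was left out, with an adjusted p of up to 0.118.

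In fed muscle, no member was called between the genotypes on either scale. As deposited, limma called 0 members higher (background 4.87%) and 0 lower (0.182%), while without adjustment p was under 0.05 for 20 that were higher and 0 that were lower. At that limit 4340 of all 12111 genes were higher and 104 lower, so the 20 of 77 are a smaller share than among all genes. The member median was 0.16, below that of all genes (0.25). When set against the median gene, 0 were called higher (0.289%) and 0 lower (0.809%). Without adjustment, limma p was under 0.05 for 0 members that were higher and 19 that were lower, against 437 and 1048 of all 12111 genes. Of the 77 members, 65 had a difference below 0, with a median of -0.12, against -0.02 over all genes. The sign of the member median in fed muscle was therefore opposite on the 2 scales. The member median minus that of all genes was -0.10 on both. Leaving out fasted WT replicate 4, which enters only through the shared estimate of spread, gave 15 higher as deposited and 3 lower relative to the median gene, and leaving out fasted WT replicate 1 gave 2 higher as deposited. On the second scale 2 were lower without fed MKO replicate 3, and 1 without fasted MKO replicate 1 or 3. With the 2 fed groups fitted alone, 15 were higher as deposited.

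The smallest adjusted p in fed muscle were those of Mrps30 and Mrpl11 as deposited. Mrps30 differed by 0.25 ± 0.07 (limma adjusted p = 0.0518, 5 of 5), and by -0.02 relative to the median gene. It passed the threshold as deposited with a filter of 2 TPM (adjusted p = 0.0495), no filter (0.0457), a pseudocount of 1 (0.0496) or the fed groups alone (0.0134), and without fasted WT replicate 1 (0.0385) or 4 (0.00934). Over all its alternatives the adjusted p ran from 0.00934 to 0.942. Mrpl11 (uL11m, of the stalk base) was at 7.47, 7.94, 9.34, 8.67 and 8.09 TPM in fed MKO, against 6.61, 6.83, 6.19 and 6.81 TPM in fed WT libraries. The groups were apart, at 0.32 ± 0.10 (adjusted p = 0.0635, 5 of 5), but relative to the median gene the value was 0.05. On that scale Mrpl53 came first with -0.37 ± 0.09 (adjusted p = 0.0561, 5 of 5) and Mrps18a second with -0.29 ± 0.08 (adjusted p = 0.111, 5 of 5).

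**Figure D4:**
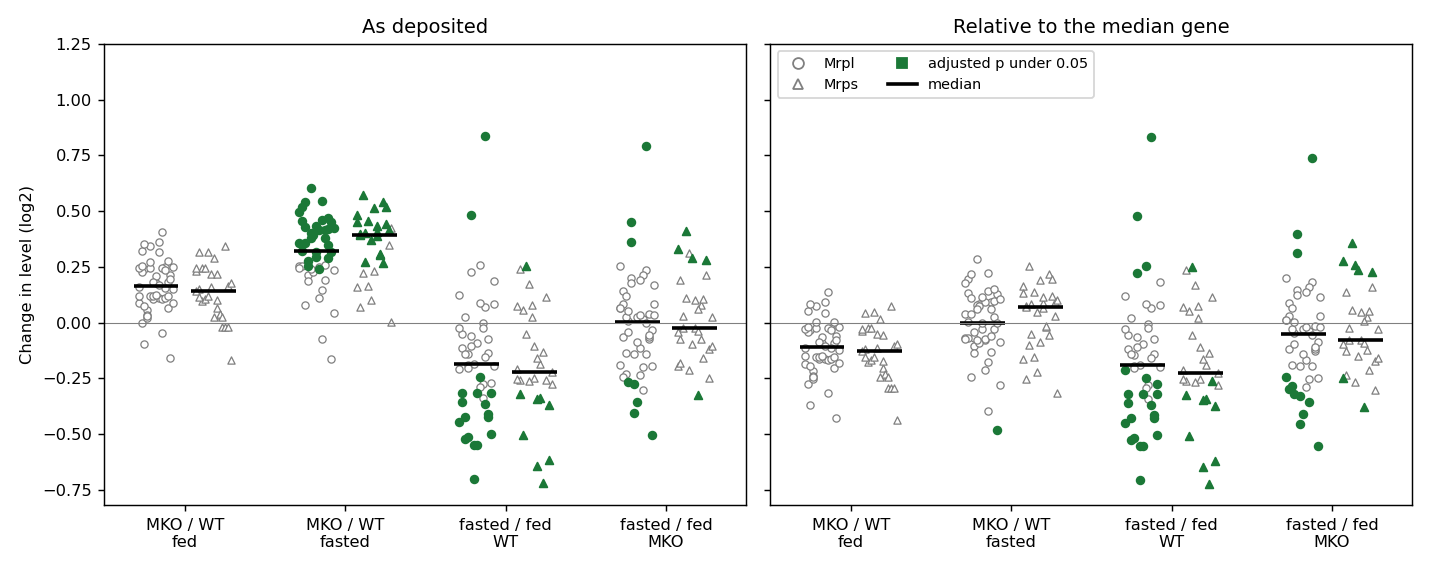
Change of every member (log2) in the 4 comparisons, as deposited (left) and relative to the median gene (right), circles for 48 Mrpl and triangles for 29 Mrps, filled green where limma's adjusted p was under 0.05, with bars at the medians. The block of 51 green points for MKO against WT in fasted muscle is absent on the right, whereas the fasting changes are alike on both sides.

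Large and small subunit genes had similar medians in each comparison, and the difference between them was not tested. On fasting in MKO mice, 5 of 48 Mrpl fell and 3 rose (median 0.00) and 1 of 29 Mrps fell and 4 rose (median -0.02) as deposited, where 15.8% of all genes fell and 18.1% rose. In WT mice, 16 Mrpl fell and 2 rose (median -0.19) and 8 Mrps fell and 1 rose (median -0.22), where 20.7% of all genes fell and 15.3% rose. Between genotypes in fasted muscle, 31 Mrpl (64.6%, median 0.32) and 20 Mrps (69.0%, median 0.39) were higher as deposited, where 38.9% of all genes were, and the medians relative to the median gene were 0.00 and 0.07. In fed muscle the medians were 0.16 and 0.14 as deposited and -0.11 and -0.13 relative to the median gene. Sorting by position in the ribosome moved Mrps30 and Mrps18a, 2 of the 4 Mrps that rose in MKO mice, to the large subunit.

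The distance between the subunits within a library is free of the scale, because any factor common to all genes cancels. The Mrpl median exceeded the Mrps median by 0.33, 0.42, 0.39, 0.27 and 0.42 (log2) in fasted MKO and by 0.25, 0.28, 0.31 and 0.28 in fasted WT libraries. The difference was 0.13, 0.37, 0.18, 0.12 and 0.16 in fed MKO and 0.12, 0.13, 0.21 and 0.03 in fed WT libraries. It was above 0 in all 18 libraries and larger in fasted than in fed WT libraries without overlap, while fed MKO replicate 2 overlapped the fasted MKO libraries. The means were 0.36 ± 0.07 in fasted MKO, 0.28 ± 0.02 in fasted WT, 0.19 ± 0.10 in fed MKO and 0.12 ± 0.07 in fed WT libraries (SD, n = 5, 4, 5 and 4), given without a test. By position in the ribosome the difference was 0.30 to 0.45 in fasted MKO, 0.28 to 0.34 in fasted WT, 0.18 to 0.38 in fed MKO and 0.14 to 0.25 in fed WT libraries. This is a difference of medians over unlike genes and not a ratio of subunits. The medians of the single-gene fasting changes as deposited lay close together for Mrpl and Mrps, at 0.00 and -0.02 in MKO and -0.19 and -0.22 in WT mice. The larger distance in fasted libraries therefore does not mean that the typical Mrpl gene rose against the typical Mrps gene by as much.

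**Figure D5:**
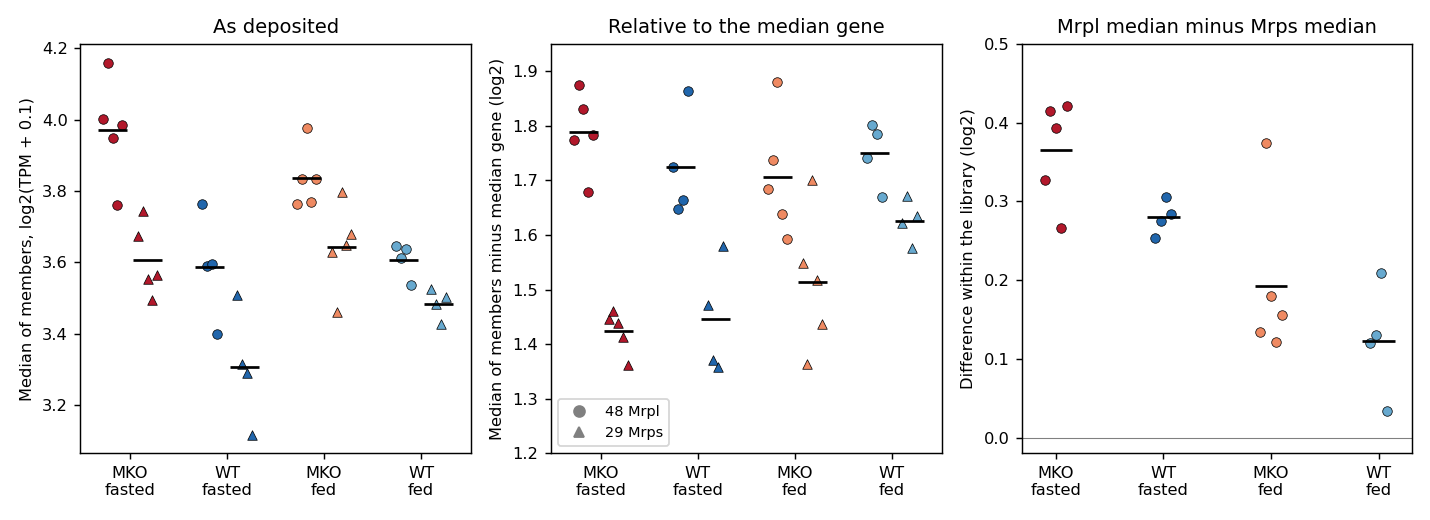
Median log2 level of the 48 Mrpl (circles) and 29 Mrps (triangles) in each library as deposited (left), minus the median gene (middle), and the Mrpl minus Mrps difference (right), with lines at group means. Group means are higher in MKO than in WT muscle on the left and differ by less in the middle panel, and the difference on the right runs from 0.03 to 0.42.

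Members with bacterial homologues and members found only in mitochondria were also set side by side. On fasting in MKO mice, relative to the median gene, 5 of 30 large subunit members with bacterial homologues fell and 1 rose, and 4 of 20 mitochondria-specific ones fell and 4 rose. In the small subunit of the same mice, 1 of 17 with homologues fell and 3 rose, and 1 of 9 mitochondria-specific members fell and 0 rose. Of all genes, 22.7% fell and 20.2% rose, so the 4 of 20 in each direction are near that share. In WT mice the counts were 10 lower and 1 higher of 30, 9 and 4 of 20, 7 and 0 of 17, and 1 and 0 of 9 in the same order, where 24.6% of all genes fell and 19.9% rose. The medians of these 4 classes ranged from -0.15 to -0.03 in MKO and from -0.23 to -0.17 in WT mice.

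Genes around the ribosome were read from lists. The mitochondrial ribosomal RNAs mt-Rnr1 and mt-Rnr2 were listed at 0 TPM. Of 6 mitochondrial ribosomal proteins with other symbols (Dap3, Chchd1, Aurkaip1, Ptcd3, Gadd45gip1 and Ict1), 1 fell and 0 rose on fasting in MKO and 2 fell and 0 rose in WT mice relative to the median gene, against the same shares of all genes. Chchd1, of the small subunit, changed by -0.16 in MKO (limma adjusted p = 0.179) and by -0.49 in WT (adjusted p = 0.00071).

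Of 16 tested factors that act with the ribosome in translation, 0 rose and 6 fell in MKO and 1 rose and 4 fell in WT mice on fasting, relative to the median gene. The shares of all genes were 20.2% higher and 22.7% lower in MKO and 19.9% and 24.6% in WT mice, so the 4 lower in WT (25.0%) are at that share. Mtfmt, which formylates the initiator methionine, changed by -0.34 in MKO (limma adjusted p = 0.0293) and -0.69 in WT (adjusted p = 0.000445). Between genotypes in fasted muscle on that scale, 0 of the 16 were higher and 2 lower, the elongation factors Gfm1 (-0.39, adjusted p = 0.0227) and Tufm (-0.32, adjusted p = 0.0239). As deposited those differences were -0.07 and 0.00, and 5 of the 16 (31.2%, against 38.9% of all genes) were higher.

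Of 28 tested assembly factors, 7 rose and 4 fell in MKO and 6 rose and 6 fell in WT mice on fasting, relative to the median gene. In WT mice 21.4% in each direction is close to the share of all genes, and in MKO mice 25.0% rose and 14.3% fell. Mterf4, which recruits a methyltransferase to the ribosome, changed by 0.45 in MKO (limma adjusted p = 0.00666) and 0.69 in WT (adjusted p = 0.000563). Eral1, a chaperone of the small subunit RNA, changed by 0.30 (adjusted p = 0.00229) and 0.36 (adjusted p = 0.001). Between genotypes in fasted muscle 13 of the 28 (46.4%, against 38.9% of all genes) were higher as deposited and 0 were called relative to the median gene. Tfb1m, a methyltransferase of the small subunit RNA, differed as deposited by 0.55 (limma adjusted p = 0.00264), and by 0.23 relative to the median gene (adjusted p = 0.169).

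Cytosolic ribosomal proteins offer a comparison of the same kind of gene. Of 82, 65 (79.3%, against 38.9% of all genes) were higher in fasted MKO than in fasted WT muscle as deposited, and 6 (7.32%, against 2.64%) relative to the median gene, where the median was 0.15 and that of the mitochondrial members 0.04. On fasting in MKO mice 0 of the 82 fell and 8 (9.76%, against 20.2% of all genes) rose relative to the median gene (median 0.08), and in WT mice 17 (20.7%, against 24.6%) fell and 3 rose (median -0.07). The 13 messengers that the mitochondrial ribosome itself translates had a median difference of -0.52 between fasted MKO and fasted WT muscle on that scale, with 9 called lower (69.2%, against 2.54% of all genes). As these genes make up most of the total, their values and those of all other genes are not independent in TPM.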

How the data were processed

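Poly(A) RNA of 18 mice was read as single ends. The authors mapped the reads to the mouse genome (mm10, GRCm38) in the CLC Genomics Workbench and deposited 1 TPM value per gene and library. Not given in the sources used here: its version, annotation and strand option. Tissue is quadriceps and kit SMARTER by the labels, while the study's methods describe another muscle and an adapter ligation. Deposited columns with the authors' fold changes and FDR values of 4 comparisons were not used. TPM keeps no read depth, so depth is unknown and no counting interval is given.

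Genes that reached 0.5 TPM in 4 or more libraries were tested as log2(TPM + 0.1) in limma 3.58.1 (R 4.3.3) with the 4 groups as 1 factor, empirical Bayes with trend and no replicate block. Fold changes are on that scale and understate the change of low genes. A second fit used the values after subtraction of each library's median over the tested genes. The procedure was tested on simulated data. Coordinates, exon bases and overlaps are from GENCODE M21 (GRCm38), and promoter windows from RefSeq. The libraries are labelled as separate biological replicates.

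Members were named as follows. In each comparison and scale up to 6 called members with the smallest adjusted p were named, or the 2 smallest where none was called, and the 3 highest and 3 lowest in level. Mrpl34, Mrpl13, Mrpl49 and Mrpl51 and the members named for overlaps were added after their values were seen. The members, lists and tests were chosen with earlier results of these data known. Alternatives were a filter of 2 TPM or none, a pseudocount of 1, TPM without mitochondrial rows, a replicate block, fits of only the groups compared, and each library left out.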

Additional observations from a re-analysis of the deposited data

Results flagged for a closer look

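In 100 sets of values from 1 group (22 named members and 3 family measures, 4 groups each), 4 held a library far from its group by Dixon's criterion, where chance flags about 1 in 20. Mrpl11 was at 10.6 TPM in fasted MKO replicate 2, against 8.002 to 8.56 TPM in the other 4. Mrpl48 was at 4.99 TPM in fed MKO replicate 1, against 5.81 to 6.14 TPM. Mrps16 was at 27.7 TPM in fed WT replicate 3, against 25.6 to 25.9 TPM. The Mrpl median exceeded the Mrps median by 0.37 (log2) in fed MKO replicate 2, against 0.12 to 0.18 in the other fed MKO libraries.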

How the results depend on the processing

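Of 954 values of named members under alternatives, 908 kept their direction and side of the threshold, 28 lost the call, 13 gained one and 5 reversed. Leaving out a library outside the groups compared cannot change the direction, because it enters only through the shared estimate of spread. These results were also named for small adjusted p, so the 908 do not measure how robust the members are. The reversed values were those of Mrps30 between genotypes in fed muscle (-0.025 with the library median subtracted, -0.050 without mitochondrial rows) and, in fasted muscle without mitochondrial rows, of Mrps30 (-0.049), Mrpl30 (-0.031) and Mrpl36 (-0.016). Subtracting the median changed the deposited counts to 0 higher and 1 lower for MKO against WT in fasted muscle, 11 lower for fasting in MKO and 5 higher for fasting in WT. TPM without mitochondrial rows gave 0 higher and 4 lower, 4 higher and 19 lower, and 5 higher for the same comparisons. Fitting only the groups compared gave 15 higher in fed muscle, 23 higher in fasted muscle and 12 lower for fasting in WT as deposited, and 0 lower in fasted muscle and 3 higher for fasting in WT relative to the median gene. A filter of 2 TPM gave 1 higher in fed muscle and, relative to the median gene, 17 lower for fasting in MKO, with a large minus small subunit difference of 0.23 in fasted WT. A pseudocount of 1 gave 1 higher in fed muscle, 1 higher and 0 lower in fasted muscle relative to the median gene, and a difference of 0.26. With no filter 1 was higher in fed muscle as deposited. The median gene is then taken over low genes too, and relative to it 0 were lower in fasted muscle. On that scale 14 were higher and 0 lower for fasting in MKO, and 10 were lower for fasting in WT. The cause of the changes under these alternatives was not tested, and the share of all genes called under each alternative is not given.

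Leaving out 1 library at a time, MKO against WT gave 0 to 15 higher in fed muscle and 39 to 58 higher in fasted muscle as deposited, and, relative to the median gene, 0 to 3 lower in fed and 0 to 1 higher and 0 to 1 lower in fasted muscle. The large minus small subunit difference was 0.35 to 0.39 in fasted MKO, 0.27 to 0.29 in fasted WT, 0.15 to 0.21 in fed MKO and 0.09 to 0.15 in fed WT. Fasting gave 4 to 8 higher and 5 to 8 lower in MKO and 3 to 5 higher and 19 to 29 lower in WT as deposited, and 6 to 9 higher and 6 to 14 lower in MKO and 2 to 5 higher and 22 to 37 lower in WT relative to the median gene.

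Replicate numbers gave no sign of pairing when libraries of different groups were correlated by each gene's deviation from its group mean. Same-numbered pairs had a median correlation of -0.003 (4 of 25 pairs over 0.1). Pairs of unlike number had a median of 0.01 (10 of 96 pairs over 0.1), and 3 of 18 libraries correlated best with their own number. With the number as a replicate block, 0 members were called lower in fasted muscle relative to the median gene, against 1 without it, and no other count moved by over 1.5 times. Limits are the unknown depth, 4 or 5 mice a group, and the 10 members with large exon overlaps.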
